A study of Mus musculus with 5 samples.

Results

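A set of 7 receptor genes that govern where natural killer (NK) cells go was followed in NK cells of the mouse spleen with and without Myc. They are the sphingosine 1-phosphate (S1P) receptor genes S1pr5, S1pr1 and S1pr4, and the chemokine receptor genes Cx3cr1, Cxcr3, Cxcr4 and Ccr2. The 7 genes were taken by symbol from a table of 13004 genes, and all 7 were present and entered the test. Live CD3-negative cells that carried NK1.1 and DX5 had been sorted from spleens of C57BL/6 mice at 8 weeks of age, and their RNA was sequenced. The 3 control samples (replicates 1, 2 and 3) came from mice of genotype Mycf/f, whose Myc alleles are flanked by loxP sites. The 2 MycKO samples (replicates 5 and 6) came from mice of genotype Mycdelta/delta/Ncr1Cre, in which Cre recombinase driven by Ncr1 removed Myc. Ncr1 is active in NK cells and in related type 1 innate lymphoid cells, so the deletion can reach beyond mature NK cells. The control genotype names no Cre, so the effects of Cre and of Myc loss cannot be told apart. The labels do not say whether each sample came from a separate mouse, so each p-value speaks of the spread among these 5 samples alone, and that spread may be technical.

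S1P is a lipid that is abundant in blood and lymph and scarce inside tissues. Lymphocytes read this gradient through G protein-coupled receptors and leave bone marrow, lymph node and spleen towards it. T and B cells rely mainly on S1PR1, and NK cells also use S1PR5, which, unlike S1PR1, resists removal from the surface by CD69. Chemokine receptors are G protein-coupled as well and set retention and recruitment: CXCR4 holds cells in bone marrow through CXCL12, CXCR3 follows the interferon-induced ligands CXCL9 and CXCL10, CCR2 follows CCL2 to inflamed tissue, and CX3CR1 binds CX3CL1 on endothelium and appears late in NK cell maturation.

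Levels are given as RPKM, reads scaled to transcript length and library size. The reads in listed genes ranged from 14290690 to 17610826 in controls, and came to 5451728 in MycKO 5 and 13337084 in MycKO 6, so values of MycKO 5 carry the most counting error. Myc itself was at 12.98, 22.97 and 21.24 RPKM (controls 1, 2 and 3) against 12.5 and 8.70 RPKM (MycKO 5 and 6), and its difference did not pass the test (limma adjusted p = 0.297). Which exons were deleted is not stated, and reads of the other exons count here, so this is a weak check of the labels. Ncr1, which drives the Cre, was at 930.8 to 1619 RPKM (controls) against 632.8 and 744.1 RPKM. Its log2 fold change of -0.84 did not pass limma (adjusted p = 0.143) or limma-voom (adjusted p = 0.0593), while in the authors' deposited table it was at -0.94 and passed (adjusted p = 0.000689). Of the sort's own markers, the NK1.1 gene Klrb1c was at 421.2 to 550.6 RPKM (controls) against 402.6 and 644.7 RPKM (MycKO 5 and 6). The DX5 gene Itga2 was at 52.7 to 57.9 RPKM (controls) against 40.8 and 44.9 RPKM (MycKO 5 and 6), and did not pass (limma adjusted p = 0.245). Summed levels of markers of other cells were higher in MycKO. The summed level of 20 monocyte, macrophage and dendritic cell markers was 736.7 to 934 RPKM (controls) against 1690 to 1957 RPKM (MycKO). By limma 11 of them rose, against 1.24% of all genes tested. Ly6c2 and Itgax, with the highest control means of that list, overlapped between the groups. For 11 measured T cell markers the sums were 112.8 to 124.6 RPKM and 216.7 to 284.9 RPKM. Of the 10 tested, 3 rose, against 1.24% of all genes. Cd3e, a gene of the CD3 complex on which cells were sorted out, was at 1.36 to 3.08 RPKM (controls) against 13.5 and 38.2 RPKM (MycKO 5 and 6). B and plasma cell markers summed to 94.0 to 142.8 RPKM (controls) and 351.2 to 683.4 RPKM (MycKO), with 1 of 9 rising, against 1.24% of all genes. Monocytes carry Ccr2 and Cx3cr1, T and B cells carry S1pr1, S1pr4 and Cxcr4, and T cells and some dendritic cells carry Cxcr3. The part of these cells in the differences below was not tested. In such bulk RNA, fewer cells of a type and less RNA per cell cannot be told apart.

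All 3 S1P receptor genes were lower in both MycKO samples than in every control, and the difference passed the test for S1pr5 alone. The chemokine receptor genes showed no shared direction, and none of the 4 passed. The test was limma on log2(RPKM + 1) over 11190 genes, with Benjamini-Hochberg adjustment and a threshold of 0.05. It called 1 of the 7 receptor genes, against 1.34% of all genes tested in either direction, 0.0983% lower and 1.24% higher. An unadjusted p under 0.05 was reached by 3 of the 7 (S1pr5, S1pr1 and Cxcr3), against 13.2% of all genes. Groups that did not overlap, with MycKO lower, were seen for the 3 S1P receptor genes, against 10.4% of all genes, and with MycKO higher for Cxcr3, against 18.8%. That is 4 of 7, against 29.1% of all genes in either direction.

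**Figure D1:**
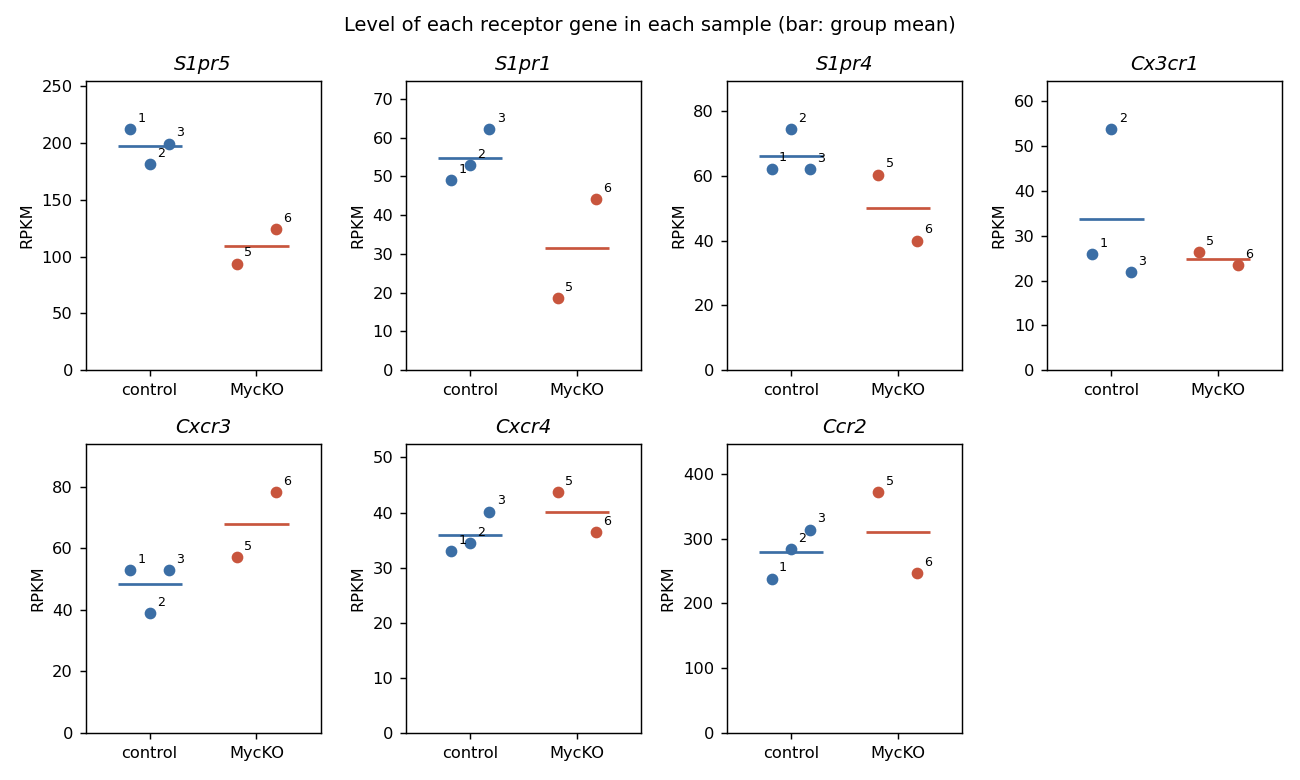
RPKM of the 7 receptor genes (vertical axis, from 0, a separate scale for each gene) in 3 control and 2 MycKO samples. Points are samples marked with their replicate number and bars are group means; MycKO points lie below all controls for S1pr5, S1pr1 and S1pr4 and above them for Cxcr3.

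S1pr5 encodes the S1P receptor most typical of NK cells (Entrez 94226; GRCm38 chromosome 9, 21242912 to 21248443, minus strand, protein-coding). Controls 1, 2 and 3 gave 212, 181.3 and 199.4 RPKM, MycKO 5 gave 93.9 RPKM and MycKO 6 gave 123.9 RPKM. The highest MycKO value thus lay well under the lowest control. Group means of 197.5 ± 15.4 RPKM (SD, n = 3; control) and 108.9 ± 21.2 RPKM (SD, n = 2; MycKO) gave a ratio of 0.551. The log2 fold change was -0.86 (SE 0.142, 95% interval -1.20 to -0.53) with a limma adjusted p of 0.0387. Counting error was small beside this difference: the 1278 reads of MycKO 5 give a 95% Poisson interval of 88.8 to 99.2 RPKM. The fall lay outside the range of -0.61 to 1.65 that held the middle 95% of all genes tested. The call was lost without control 1 (-0.81, adjusted p = 0.137), control 3 (-0.86, adjusted p = 0.136) or MycKO 5 (-0.67, adjusted p = 0.235), and with a pseudocount of 0.1 (adjusted p = 0.056).

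S1pr1, the receptor by which most lymphocytes leave lymphoid organs, was the least even of the S1P receptor genes within MycKO (Entrez 13609; chromosome 3, 115710433 to 115715072, minus strand, protein-coding). It was at 49.1, 53 and 62.2 RPKM in controls 1, 2 and 3, at 18.7 RPKM in MycKO 5 and at 44.2 RPKM in MycKO 6. MycKO 6 lay just under the lowest control, whereas MycKO 5 was far below it. The 309 reads of MycKO 5 allow 16.7 to 20.9 RPKM and the 1786 reads of MycKO 6 allow 42.2 to 46.3 RPKM (95% Poisson intervals), so counting error does not cover the gap between them. The means of 54.8 ± 6.72 RPKM (SD, n = 3) and 31.4 ± 18 RPKM (SD, n = 2) gave a log2 fold change of -0.90 (SE 0.316, 95% interval -1.64 to -0.16), as large as that of S1pr5 in the point estimate, and a limma adjusted p of 0.28. Without MycKO 6 the gene passed, at -1.49 with an adjusted p of 0.0378, and without MycKO 5 it was at -0.30 with an adjusted p of 0.808. The size of the S1pr1 difference therefore rested on MycKO 5, the shallowest library.

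S1pr4, whose product is found on most blood cells of the lymphoid and myeloid lines, showed the opposite split between the MycKO samples (Entrez 13611; chromosome 10, 81497747 to 81500132, minus strand, protein-coding). Controls 1, 2 and 3 held 62.3, 74.5 and 62.2 RPKM, MycKO 5 held 60.4 RPKM and MycKO 6 held 40 RPKM. Here MycKO 6 was the low sample and MycKO 5 was within counting error of controls 1 and 3, with a 95% Poisson interval of 56.3 to 64.8 RPKM. Means of 66.3 ± 7.06 RPKM (SD, n = 3) and 50.2 ± 14.4 RPKM (SD, n = 2) gave a log2 fold change of -0.42 (95% interval -0.86 to 0.02) with a limma adjusted p of 0.404. It was at -0.71 without MycKO 5 and at -0.13 without MycKO 6. S1pr1 was thus lower mainly in MycKO 5 and S1pr4 mainly in MycKO 6.

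The remaining receptors of the family were minor. S1pr2, which couples to inhibition of migration, was at 10.2 to 10.8 RPKM (controls) against 9.77 and 9.32 RPKM (MycKO 5 and 6; limma adjusted p = 0.858). S1pr3, a receptor of vessels and myeloid cells, was at 0.222 to 0.640 RPKM (controls) and 0.368 RPKM (MycKO 5) and had no read in MycKO 6, where a count of 0 allows up to 0.0502 RPKM (3 reads). Its level was under the filter on low values, so it was not tested. Summed over the 5 genes, the family held 320 to 334.6 RPKM (controls) against 183.1 and 217.4 RPKM (MycKO 5 and 6). S1pr5 made up 56.6% to 63.4% of that sum (controls) against 51.3% and 57.0% (MycKO 5 and 6), so it stayed the most abundant member in all 5 samples. The share of S1pr4 was 18.6% to 23.3% in controls, 33% in MycKO 5 and 18.4% in MycKO 6, and that of S1pr1 was 14.7% to 18.6%, 10.2% and 20.3%.

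**Figure D2:**
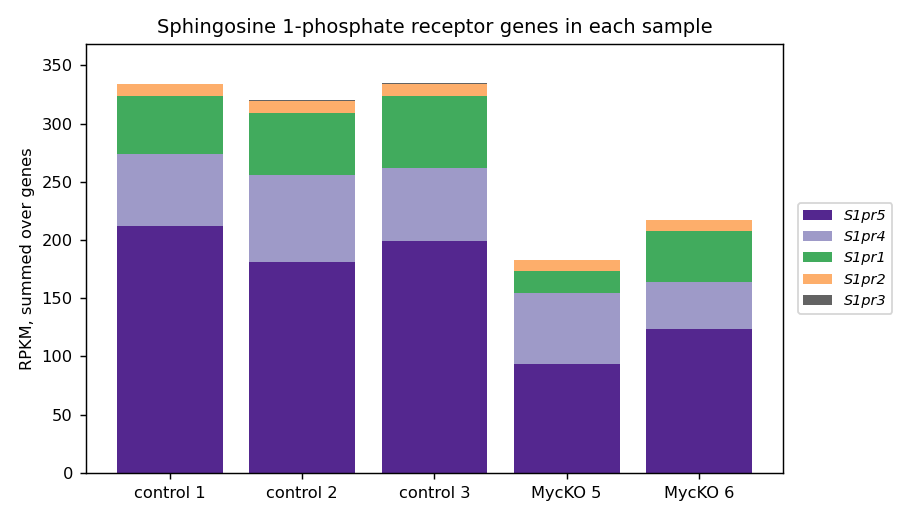
Summed RPKM of the 5 S1P receptor genes (vertical axis, from 0) in each of the 5 samples, with each segment giving 1 gene. The columns reach 320 to 334.6 RPKM (controls) against 183.1 and 217.4 RPKM (MycKO 5 and 6), and the S1pr5 segment is the largest in each.

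Because all 3 S1P receptor genes were lower in both MycKO samples, the stretch before the start of S1pr5 is shown beside those of S1pr4 and of Cxcr4, a receptor gene whose groups overlapped. These are the 250 bases before the RefSeq start on GRCm38.p6, read 5′ to 3′ on the gene's own strand (minus for all 3), at chr9:21248444-21248693, chr10:81500138-81500387 and chr1:128592300-128592549. RefSeq promoters were matched for 6 of the 7 genes; S1pr1 was not matched. Capitals mark matches to CACCC or its reverse GGGTG, letters bound by KLF factors, and to CACCTG or its reverse CAGGTG, an E-box bound by ZEB factors; no match overlapped another.
S1pr5: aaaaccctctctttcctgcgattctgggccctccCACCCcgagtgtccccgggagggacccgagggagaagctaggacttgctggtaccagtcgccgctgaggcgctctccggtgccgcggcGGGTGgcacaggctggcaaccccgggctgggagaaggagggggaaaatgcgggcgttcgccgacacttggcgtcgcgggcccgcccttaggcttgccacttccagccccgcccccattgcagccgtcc
S1pr4: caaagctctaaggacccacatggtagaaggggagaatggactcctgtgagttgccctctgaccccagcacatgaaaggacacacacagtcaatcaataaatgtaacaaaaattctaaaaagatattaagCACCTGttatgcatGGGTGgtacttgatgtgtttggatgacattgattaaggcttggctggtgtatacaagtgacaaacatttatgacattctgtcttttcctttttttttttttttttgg
Cxcr4: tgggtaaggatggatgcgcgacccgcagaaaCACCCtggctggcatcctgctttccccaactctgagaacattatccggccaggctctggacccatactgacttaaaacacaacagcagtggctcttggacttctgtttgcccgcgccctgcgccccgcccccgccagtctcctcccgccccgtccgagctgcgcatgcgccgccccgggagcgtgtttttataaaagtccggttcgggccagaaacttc
The S1pr5 window held 2 CACCC matches, at 216 and 128 bases before the start, and was GC-rich (69.2%, against a median of 52.4% over all promoters). The S1pr4 window was GC-poor (38.8%) and held 1 CACCC match and 1 CACCTG match. The Cxcr4 window (61.2% GC) held 1 CACCC match. CACCC letters stood in 4 of the 6 matched receptor promoters, against 52.0% of all 32851 promoter windows of that length, and CACCTG letters in 2 of 6, against 17.2%. The T-box core CACACC, searched on both strands, was in none of the 6, against 16.3% of all. The E-box CACGTG was also in none, against 6.02% of all. These matches describe letters in the window and not bound sites. The S1pr5 window also covers exon bases of Gm48303, a transcript of the opposite strand. Windows of Cx3cr1, Cxcr3 and Ccr2, not shown, cover annotated exon bases of the gene itself. The CACCC match of Cx3cr1 and the CACCTG match of Cxcr3 came from such windows.

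Ccr2, the receptor for CCL2 on monocytes and on a part of NK cells, had the highest level of the 7 genes in every sample (Entrez 12772; chromosome 9, 124101950 to 124113557, plus strand, protein-coding). It was at 238.2, 284.2 and 313.8 RPKM in controls 1, 2 and 3, at 371.9 RPKM in MycKO 5 and at 247.1 RPKM in MycKO 6. One MycKO sample was above all controls and the other lay among them. The means were 278.7 ± 38.1 RPKM (SD, n = 3) and 309.5 ± 88.3 RPKM (SD, n = 2), which put the log2 fold change at 0.13 (95% interval -0.32 to 0.58, limma adjusted p = 0.873). Without MycKO 5 the sign turned, to -0.16. Monocyte, macrophage and dendritic cell markers had a median log2 fold change of 2.07 in the same comparison. They summed to 1957 RPKM in MycKO 5 and 1690 RPKM in MycKO 6. Single markers did not move alike: Lyz2, the most abundant over all 5 samples, was at 102, 219.7 and 55.1 RPKM (controls 1, 2 and 3) against 733.6 and 210.5 RPKM (MycKO 5 and 6). Ly6c2, a marker of inflammatory monocytes with the highest control mean of the list, was at 457.5, 93.1 and 272.4 RPKM (controls 1, 2 and 3) against 102.3 and 250.6 RPKM (MycKO 5 and 6). The part of myeloid cells in the Ccr2 values was not tested.

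Cxcr3, the receptor for the interferon-induced ligands, was higher in both MycKO samples than in every control (Entrez 12766; chromosome X, 101731535 to 101734269, minus strand, protein-coding). It was at 52.9, 39 and 52.7 RPKM in controls 1, 2 and 3, at 57.2 RPKM in MycKO 5 and at 78.2 RPKM in MycKO 6. MycKO 5, with 502 reads and a 95% Poisson interval of 52.3 to 62.4 RPKM, was within counting error of controls 1 and 3, and MycKO 6 stood above. The means were 48.2 ± 7.99 RPKM (SD, n = 3) and 67.7 ± 14.9 RPKM (SD, n = 2), a ratio of 1.40. The log2 fold change was 0.48 (95% interval 0.03 to 0.92) with a limma adjusted p of 0.344, and it lay at 0.26 to 0.70 when single samples were left out. T cell markers summed to 216.7 RPKM in MycKO 5 and 284.9 RPKM in MycKO 6, and their part in the Cxcr3 values was not tested.

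Cxcr4, the receptor for CXCL12, was at 33.1, 34.5 and 40.2 RPKM (controls 1, 2 and 3) against 43.7 and 36.5 RPKM (MycKO 5 and 6; Entrez 12767; chromosome 1, 128588199 to 128592293, minus strand, protein-coding). The groups overlapped, and its values varied least of the 7: 32.9% of genes with a mean log2 value of at least 3 had a smaller spread over the samples. The log2 fold change was 0.15 (95% interval -0.19 to 0.50, limma adjusted p = 0.771), and it was 0.03 without MycKO 5, 0.28 without MycKO 6, 0.10 without control 1 and 0.24 without control 3. A fall of Cxcr4 as large as the -0.86 of S1pr5 is outside that interval.

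Cx3cr1, the receptor for CX3CL1, had 1 sample apart from the others, control 2 (Entrez 13051; chromosome 9, 119901616 to 120069879, minus strand, protein-coding). It was at 53.8 RPKM there, against 25.9 and 21.9 RPKM (controls 1 and 3) and 26.4 and 23.4 RPKM (MycKO 5 and 6). The other 4 samples lay within a narrow range, and both MycKO samples lay between the lowest and the middle control or just above the middle one. The log2 fold change of -0.32 (95% interval -1.13 to 0.48) did not pass (limma adjusted p = 0.811), and without control 2 it was 0.06. The cytokinesis gene Racgap1 had the pattern nearest to that of Cx3cr1, with 59.3 RPKM in control 2 and 22.6 to 32.2 RPKM in the other 4 samples.

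**Figure D3:**
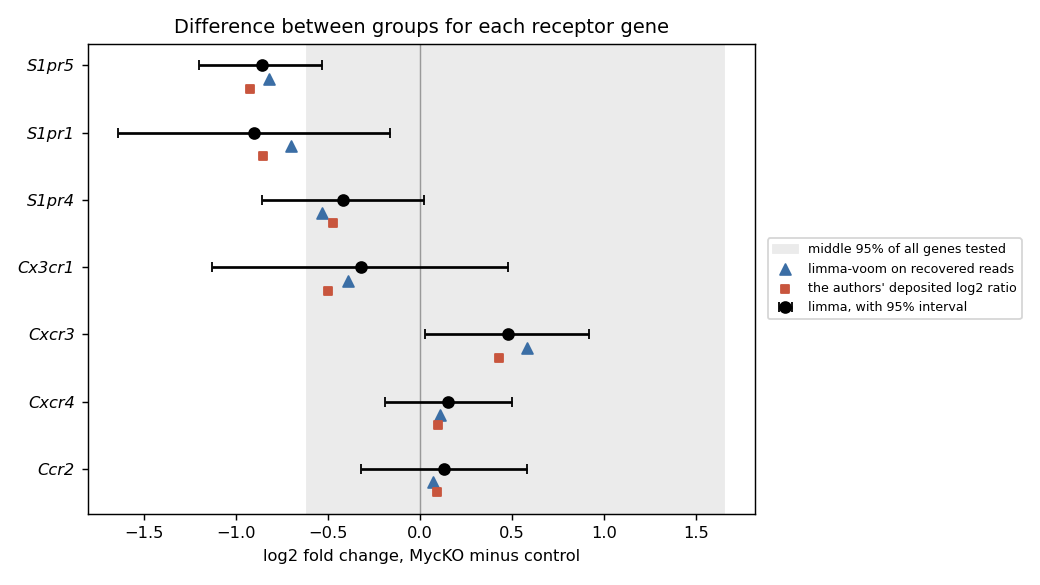
Log2 fold change, MycKO minus control (horizontal axis), of the 7 receptor genes by limma with its 95% interval (circles), by limma-voom on recovered reads (triangles) and as the authors' deposited log2 ratio (squares); the grey band runs from -0.61 to 1.65 and holds the middle 95% of all genes tested. The 3 estimates have the same sign for each gene, and S1pr5 and S1pr1 lie left of the band in all 3.

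Limma-voom, run on the reads recovered from the table, called S1pr5 at -0.82 with an adjusted p of 0.007 and none of the other 6, where it called 1.93% of all genes, 0.215% lower and 1.71% higher. Among the log2 ratios of the authors' deposited table, that of S1pr5 was at -0.92 with an adjusted p of 5.62e-06, S1pr1 at -0.85 with 0.0611, S1pr4 at -0.47 with 0.263 and Cxcr3 at 0.43 with 0.414. By the adjusted p-values of the authors' deposited table, 3.4% of its genes passed, 0.5% lower and 2.9% higher.

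**Figure D4:**
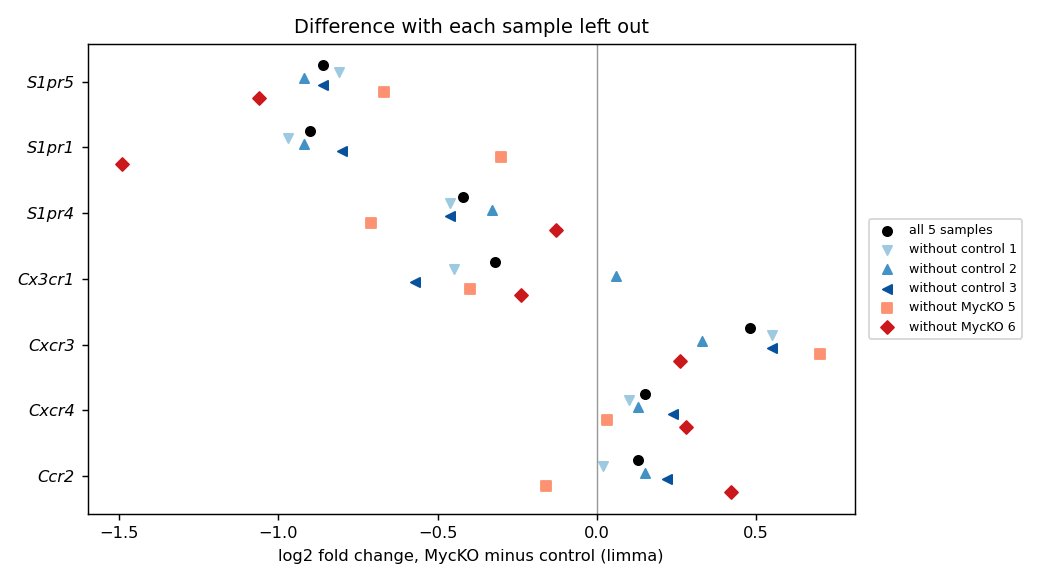
Log2 fold change, MycKO minus control, by limma (horizontal axis) of the 7 receptor genes with all 5 samples and with each sample left out. S1pr5 stays between -1.06 and -0.67, S1pr1 runs from -1.49 to -0.30, and Cx3cr1 and Ccr2 cross 0.

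The order of the mean levels differed between the groups in the middle of the range, and it also varied between samples within each group. S1pr4 stood above Cxcr3 in MycKO 5 (60.4 and 57.2 RPKM), as in every control, and below it only in MycKO 6 (40 and 78.2 RPKM). In controls Ccr2 was followed by S1pr5, S1pr4, S1pr1, Cxcr3, Cxcr4 and Cx3cr1. The sample ranges of Ccr2 and S1pr5 did not touch their next neighbour. Those of S1pr4 (62.2 RPKM or more) and S1pr1 (62.19 RPKM or less) met in control 3 within counting error. The 95% Poisson intervals there were 59.6 to 64.9 RPKM (S1pr4) and 59.9 to 64.6 RPKM (S1pr1). The ranges of S1pr1 and Cxcr3, Cxcr3 and Cxcr4, and Cxcr4 and Cx3cr1 overlapped. In MycKO the order was Ccr2, S1pr5, Cxcr3, S1pr4, Cxcr4, S1pr1 and Cx3cr1, and every pair of neighbours after S1pr5 and Cxcr3 overlapped. Among all 13004 listed genes, S1pr5 was above 97.9% (controls) and 95.6% (MycKO), and S1pr1 above 89.4% and 79.9%. Cxcr3 was above 87.6% in controls and 91.9% in MycKO.

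Ratios between receptors within a sample, which need no scaling between samples, were compared for 5 pairs by an exact two-sided permutation test. With 3 samples against 2 the smallest p this test can give is 0.2, so no pair could pass. The log2 ratio of S1pr5 over S1pr1 was 2.11, 1.77 and 1.68 (controls 1, 2 and 3) against 2.33 and 1.49 (MycKO 5 and 6), so the MycKO samples lay on either side of all controls (difference 0.05, exact permutation p = 1). For S1pr5 over S1pr4 it was 1.77, 1.28 and 1.68 in controls, 0.64 in MycKO 5 and 1.63 in MycKO 6 (difference -0.44, exact permutation p = 0.4). Only MycKO 5 left the control range there. Cx3cr1 over Cxcr3 differed by -0.82 (exact permutation p = 0.4), and by -0.28 without control 2, the sample high in Cx3cr1. The other pairs were Cxcr3 over Ccr2, with a difference of 0.36 (exact permutation p = 0.6), and Cxcr4 over Ccr2, with 0.03 (exact permutation p = 1). Each adjusted p over the 5 pairs was 1.

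The list of enzymes and transporters that make, break down and move S1P, which also holds the receptor gene S1pr2, gave 1 call. Of 17 tested genes, 1 rose and none fell, where 1.24% of all genes rose and 0.0983% fell, with a median log2 fold change of 0.06 against 0.05 over all genes. An unadjusted p under 0.05 was reached by 6, against 13.2% of all genes. Groups did not overlap for 7 with MycKO higher (18.8% of all genes) and 1 with MycKO lower (10.4%). Limma-voom called 1 (1.93% of all genes), and 2 passed in the authors' deposited test (3.4%). The gene that rose was Asah1, the lysosomal ceramidase that frees sphingosine, at 18.4, 24.1 and 17.3 RPKM (controls 1, 2 and 3) against 50.5 and 51.7 RPKM (MycKO 5 and 6; log2 fold change 1.33, limma adjusted p = 0.0214). The kinase gene Sphk1, which makes S1P, had 0, 0.0208 and 0 RPKM (controls 1, 2 and 3) against 4.69 and 1.37 RPKM (MycKO 5 and 6), and the lipid phosphatase gene Plpp1 had 0, 1.09 and 0 RPKM and 3.12 and 5.65 RPKM. Neither passed (limma adjusted p = 0.134 and 0.105). Summed markers of several other cell types, myeloid cells among them with a median log2 fold change of 2.07, were higher in the same samples. The part of such cells in the Asah1, Sphk1 and Plpp1 values was not tested.

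Genes that couple these receptors to G proteins or switch them off included 4 that rose of 24 tested, and none fell. Over all genes, 1.24% rose and 0.0983% fell. The list's median was 0.11, against 0.05 over all genes. Rgs1 and Rgs2, regulators that shorten G protein signals, went from 32.3 ± 3.66 to 59.2 ± 5.51 RPKM and from 24 ± 2.56 to 47.7 ± 6.93 RPKM (SD, n = 3 and n = 2). Rgs18, a regulator best known in platelets and myeloid cells, went from 2.49 ± 0.407 to 13.3 ± 5.36 RPKM, and Grk3, a kinase that desensitises activated receptors, from 2.28 ± 0.398 to 9.07 ± 1.13 RPKM. Limma adjusted p-values were 0.0402 for Rgs1, 0.0387 for Rgs2, 0.0341 for Rgs18 and 0.0427 for Grk3. The G protein gene Gnai2, through which both receptor families signal, had means of 250.6 RPKM (control) and 265.7 RPKM (MycKO), and the kinase gene Grk2 171.6 and 167.6 RPKM; both were chosen after their values were seen. Red cell and platelet markers summed to 85.3 to 139.7 RPKM (controls) against 397 and 221.4 RPKM (MycKO 5 and 6), with 3 of 8 rising, and the part of such cells and of myeloid cells in these rises was not tested.

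Regulators of egress gave no call in 20 tested genes by limma, but an unadjusted p under 0.05 was reached by 9, against 13.2% of all genes. Limma-voom called 1, against 1.93% of all genes, and 3 passed in the authors' deposited test, against 3.4%. In 14 of the 20 the value was lower in MycKO, as in 42.9% of all genes, and the median was -0.10 against 0.05 over all genes. Tbx21, encoding T-bet, which NK cells need to express S1pr5, was at 218.8, 190.1 and 206 RPKM (controls 1, 2 and 3) against 133.5 and 147.1 RPKM (MycKO 5 and 6; log2 fold change -0.54, limma adjusted p = 0.0695); limma-voom called it (adjusted p = 0.0287). Klf2, whose product drives S1pr1 in T cells, was at 277, 215.9 and 226.1 RPKM (controls 1, 2 and 3) against 155.5 and 185 RPKM (MycKO 5 and 6; adjusted p = 0.183). Zeb2, which acts after T-bet in NK maturation and was chosen after its value was seen, was at -0.40 (adjusted p = 0.335). Ikzf3, a lymphoid transcription factor gene, was at -0.35 (adjusted p = 0.22). Cd69, whose product removes S1PR1 from the surface, was at a mean of 23.5 RPKM without and 36.4 RPKM with the deletion (adjusted p = 0.323), also chosen after its value was seen.

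Among 18 adhesion and homing receptor genes 1 fell, against 0.0983% of all genes. It was Itgam, which encodes CD11b and marks mature NK cells, from 183.7 ± 11.2 to 114 ± 11.5 RPKM (SD, n = 3 and n = 2; limma adjusted p = 0.0387). The integrin genes Itga4 and Itga2 were at -0.40 (limma adjusted p = 0.158) and -0.36 (limma adjusted p = 0.245), and the list's median was -0.08 against 0.05 over all genes. Limma-voom called 2 of the 18, Itgam (adjusted p = 0.00434) and Itga4 (adjusted p = 0.0336), against 1.93% of all genes. In the authors' deposited test 2 passed (3.4% of all genes), and an unadjusted limma p under 0.05 was reached by 7 (13.2% of all genes). Of 34 genes of the migration machinery none passed limma, an unadjusted p under 0.05 was reached by 4 (13.2% of all genes), limma-voom called 0 and 1 passed in the authors' deposited test (3.4% of all genes). In 24 of these 34 the value was lower in MycKO, as in 42.9% of all genes. Groups did not overlap for 8 with MycKO lower (10.4% of all genes) and 3 with MycKO higher (18.8%). The list's median was -0.09. S100a4, a motility protein gene also abundant in myeloid cells, was at 1.09 (limma adjusted p = 0.0614). The formin gene Fmnl1 was at -0.43 (0.22) and the small GTPase gene Rap1a at 0.35 (0.22). None of the 10 other chemokine receptor genes tested passed limma, while an unadjusted p under 0.05 was reached by 4, against 13.2% of all genes. Limma-voom called Ccr3, and 3 passed in the authors' deposited test, against 3.4% of all genes. Of these 10 genes, 9 were higher in MycKO, as were 57.1% of all genes, and the median was 0.70 against 0.05 over all genes. Of the ligands of the 4 chemokine receptors, Cxcl10 (3.30 and 11.2 RPKM, adjusted p = 0.0532) and Cxcl9 (0.862 and 5.13 RPKM, adjusted p = 0.127) were tested and did not pass by limma, though the unadjusted p was under 0.05 for both. The count called was 0 in limma-voom and 0 in the authors' deposited test.

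The 6 pathway genes that passed (Asah1, Rgs1, Rgs2, Rgs18, Grk3 and Itgam) all missed the threshold without control 1, control 3, MycKO 5 or MycKO 6, with adjusted p-values of 0.0762 to 0.144, 0.0732 to 0.135, 0.116 to 0.371 and 0.0631 to 0.232, and 4 of them passed without control 2. Rgs1 (adjusted p = 0.0548), Rgs2 (0.0512) and Grk3 (0.051) also missed it under median-of-ratios scaling, Rgs1 under upper-quartile scaling (0.0509), Grk3 with no filter (0.0588) and with a filter of 5 RPKM (0.0807), and Rgs18 with no filter (0.0508). With a pseudocount of 0.1, Asah1 passed (0.0276) and the other 5 missed it, with adjusted p-values of 0.0509 to 0.07.

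**Figure D5:**
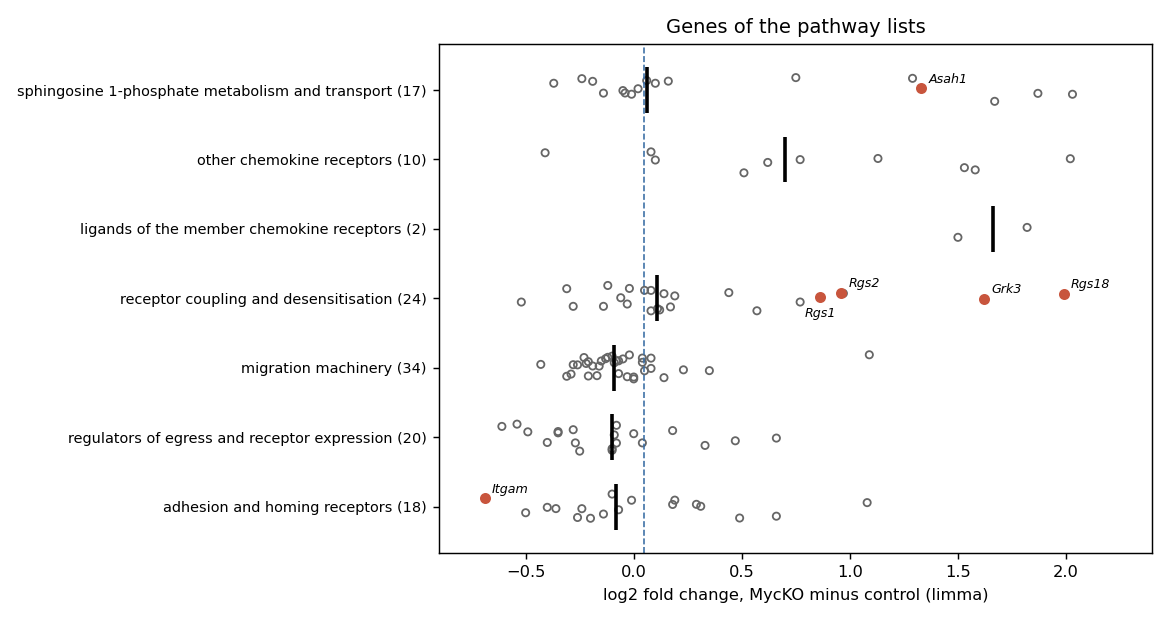
Log2 fold change, MycKO minus control, by limma (horizontal axis) of the tested genes in 7 pathway lists (rows, with the number of genes). Filled points passed at an adjusted p under 0.05 and are named, black bars are list medians, and the dashed line is the median of all genes tested, 0.05.

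Genes with the most similar pattern were sought over the 5 samples by the root mean square difference of centred log2(RPKM + 1) values; points share libraries, so these are descriptions. Nearest to S1pr5 were the copper homeostasis gene Cutc (difference 0.0991), Klhl4 (0.109) and the arsenite methyltransferase gene As3mt (0.111), the last of which also passed limma as lower (adjusted p = 0.0295). S1pr1 had Ptprv (0.165), Znrd1 (0.178) and Phactr3 (0.195) nearest, all of them low in MycKO 5 and near the controls in MycKO 6. For S1pr4 they were Smg8 (0.0445), Unc45a (0.073) and Spry2 (0.0795), and for Cxcr3 they were Sepp1 (0.0446), Ivd (0.0557) and Itpr1 (0.0614). Cx3cr1 had Racgap1 (0.125), Fars2 (0.130) and Wdr6 (0.131), each highest in control 2. Cxcr4 and Ccr2, whose groups overlapped, were nearest to Polr2e (0.0365), Psma7 (0.0381) and Zfp207 (0.0427), and to the ribosome assembly gene Tsr1 (0.0492), the nucleolar gene Nop56 (0.0567) and Manba (0.0578). No S1P receptor gene was among the 3 nearest of another.

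Read sharing with other genes was small. Reads were 51 bases long, and of all 51-base windows in the annotated transcripts of each receptor gene, none was found in a transcript of another gene for S1pr1, Cxcr3 and Cxcr4. The share was 0.082% for S1pr5, 1.199% for S1pr4, 1.011% for Cx3cr1 and 1.86% for Ccr2. S1pr5 overlaps the provisional antisense transcript Gm48303 in 51 of its 2500 exon bases, and Cx3cr1 overlaps the antisense gene Gm33858 in 78 of 4505. The sources used here do not give whether counting used strand.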

How the data were processed

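Per the labels' protocols, dUTP-stranded libraries of sorted cells were read from 1 end over 51 bases. TopHat, edgeR and the build mm10 are named in the submitters' processing notes with no role; the sources used here give no version, annotation or counting tool. The deposited table gives a value per sample whose unit no header names; the values fit RPKM, with 1 step per read for each gene. It also gives, per the file headers, the authors' mean normalized signal per group, their ratio (fold change), its log2 value, and a p-value and adjusted p-value whose test is not named. It holds no raw counts, so the test planned for RPKM was used. The lowest mean signal was 2.10, so genes of very low level are not in the table.

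Genes reaching 1 RPKM in at least 2 samples (11190 of 13004) were tested with limma 3.58.1 in R 4.3.3 on log2(RPKM + 1) with a variance trend, all 5 samples, no covariate, two-sided, Benjamini-Hochberg over all genes. Fold changes (MycKO minus control) are on the log2(RPKM + 1) scale and understate changes of low genes. Reads were recovered from RPKM values and group means: 100% of values were whole within 0.001 of a read. They gave Poisson intervals, which cover counting error only, and limma-voom (genes with at least 10 reads in 2 samples). The procedure was also run on counts simulated with known changes, with the same spread beyond counting error for every gene. That run checked the code and held no RNA of other cells, so it does not show how reliable the calls here are. Positions and 51-base windows are from GENCODE vM21 (GRCm38) and promoters from RefSeq (GRCm38.p6). Ratios were tested in SciPy 1.17.1 and figures drawn in matplotlib 3.10.9.

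The 7 genes and the lists were chosen with earlier results of these data known, so counts over lists are descriptions. Named are the 7 genes, Myc, Ncr1, in each pathway list every gene called and at least the 3 of smallest p where 3 were tested, the most abundant gene of each marker list and markers of the sort, and the 3 genes nearest to each receptor gene (mean log2 value of at least 3, leaving out pseudogenes, predicted genes and segments of antigen receptors). Alternatives were scaling by median-of-ratios or by upper quartile, no filter, a filter of 5 RPKM, a pseudocount of 0.1, leaving out each sample, limma-voom, the authors' deposited test, an adjusted p under 0.01, and a log2 fold change of at least 1. A planned comparison of protein sequences was not run, since protein sequences were not analysed here. Values of 1 further gene are not reported here.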

Additional observations from a re-analysis of the deposited data

How the results depend on the processing

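S1pr5 kept its direction under all 14 alternatives (-1.06 to -0.67 with single samples left out); it did not pass with a pseudocount of 0.1 (-0.87), an adjusted p under 0.01 or a log2 fold change of at least 1 (-0.86 in both). Of the 7 receptor genes, 0 passed under those 3 settings and 0 to 2 with single samples left out. S1pr1 lay at -1.49 to -0.30, Cx3cr1 at -0.57 to 0.06, Cxcr4 at 0.03 to 0.28 and Ccr2 at -0.16 to 0.42 with single samples left out. The differences in log2 ratio ranged from -0.37 to 0.47 for S1pr5 over S1pr1, -0.94 to 0.05 for S1pr5 over S1pr4, -1.14 to -0.28 for Cx3cr1 over Cxcr3, -0.17 to 0.88 for Cxcr3 over Ccr2 and -0.14 to 0.19 for Cxcr4 over Ccr2.

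Of all genes, 150 passed (11 lower). The number was 80 (5 lower) with a pseudocount of 0.1, 242 (27 lower) in limma-voom, 442 (65 lower) in the authors' deposited test, 24 (0 lower) at an adjusted p under 0.01, and 34 to 217 (0 to 18 lower) with single samples left out; 6 lower genes had a log2 fold change of at least 1. Pathway genes called went from 6 to 3 under median-of-ratios scaling, 1 with a pseudocount of 0.1, 15 in the authors' deposited test, 0 at an adjusted p under 0.01, 3 at a log2 fold change of at least 1, and 0 to 7 with single samples left out. With 1 MycKO sample left, limma assumes that it varies like the controls. Upper-quartile scaling and both filters changed no receptor gene's call. The cause of these changes was not tested. No paired analysis was possible because the groups share no replicate number. MycKO 5, with 5451728 reads, limits the precision of the MycKO group.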

Other observations

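Ccr2 lies in a run of chemokine receptor genes on mouse chromosome 9 (GRCm38.p6), which were compared after the values had been seen. Ccr3, the eotaxin receptor gene typical of eosinophils and basophils (124017825 to 124031692), was at 4.89, 8.83 and 4.81 RPKM (controls 1, 2 and 3) against 12 and 32.2 RPKM (MycKO 5 and 6; limma log2 fold change 1.58, adjusted p = 0.156). Cxcr6, a receptor gene of type 1 innate lymphoid cells and T cells (123806477 to 123811754), was at 1.68, 4.62 and 0.961 RPKM (controls 1, 2 and 3) against 6.29 and 20.5 RPKM (MycKO 5 and 6; log2 fold change 2.02, adjusted p = 0.178). Xcr1, a receptor gene of cross-presenting dendritic cells, was at 0.141 to 0.625 RPKM (controls) against 5.27 and 1.75 RPKM (MycKO 5 and 6; log2 fold change 1.53, adjusted p = 0.201). Ccr1 was at 0 to 2.01 RPKM (controls) against 3.56 and 1.59 RPKM (MycKO 5 and 6). The groups overlapped for Ccr2 and Ccr1, and for Ccr9 and Ccr1l1 of the same run, which were under the filter on low values. Ccr3, Cxcr6 and Xcr1 were higher in both MycKO samples than in every control, as were 18.8% of all genes tested. Ccr3 and Cxcr6 were highest in MycKO 6 and Xcr1 in MycKO 5.

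The type 1 innate lymphoid cell markers, a list that holds Cxcr6, summed to 30.1 to 33.7 RPKM (controls) against 81.0 and 125.5 RPKM (MycKO 5 and 6). By limma 1 of these 8 rose, against 1.24% of all genes. Basophil and mast cell markers summed to 5.25 to 6.38 RPKM (controls) against 66.5 and 10.7 RPKM (MycKO 5 and 6). Neutrophil markers summed to 25.2 to 79.4 RPKM (controls) against 573.2 and 235.4 RPKM (MycKO 5 and 6), and red cell and platelet markers to 85.3 to 139.7 RPKM and to 397 and 221.4 RPKM. NK cell markers summed to 14250 to 16530 RPKM (controls) against 11580 and 13630 RPKM (MycKO 5 and 6). Gzma, with means of 6910 RPKM (control) and 5159 RPKM (MycKO), was the largest part of that sum. Of these 13 markers, 5 were lower in both MycKO samples than in every control, against 10.4% of all genes. Il2rb was higher in both, as were 18.8% of all genes, and the groups overlapped for the rest. The part of these cells in the values of the receptor genes was not tested. The most abundant genes of these lists were Il7r (9.09 to 13.7 RPKM in controls, then 27.4 and 57.9 RPKM for MycKO 5 and 6), S100a8 (8.57 to 34.4, then 268.8 and 106.9 RPKM), Mcpt8 (0 in each control, 27.3 and 3.76 RPKM), Car2 (79.7 to 129, then 182.1 and 125.6 RPKM) and, for NK cells, Gzma (6584 to 7251, then 4699 and 5620 RPKM). Lat, the most abundant T cell marker and also made by NK cells, was at 49.6 to 81.3 RPKM, then 67.4 and 76 RPKM, and the plasma cell gene Jchain at 34.8 to 80.2, then 232.3 and 580.1 RPKM.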
